A study of Mus musculus with 3 samples.

Results

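The transcripts of the mitochondrial genome were examined in activated regulatory T cells (Treg) of mouse. Members were all genes whose GENCODE M21 symbol starts with mt-, which are the 37 genes of chromosome M among 55536 annotated genes. They comprise 13 mRNA genes, 2 rRNA genes and 22 tRNA genes. Treg are the CD4 T cells, defined by the factor Foxp3, that hold immune responses in check. Primary cells, labelled male and aged 3 weeks, gave polyadenylated RNA for 3 sequencing libraries. The labels name these libraries technical replicates 1, 2 and 3 of 1 biological replicate, and they are called library 1, library 2 and library 3 here. They formed 1 group. The labels used here do not give the strain, the genotype, the means of activation, or the step at which the libraries were split. Every SD is the spread between these 3 libraries of 1 sample (n = 3), not between animals, and no comparison between conditions was possible.

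Levels are in TPM, a deposited measure of transcript abundance scaled for length and total. Read numbers are the deposited expected counts, estimates of the reads that belong to a gene. Positions are on mouse build mm10. Gene reads numbered 30362256, 28419259 and 31959927 in libraries 1, 2 and 3. All 6 Treg markers, Foxp3, Il2ra, Ctla4, Ikzf2, Tnfrsf18 and Tnfrsf4, were detected, with a median of 252 TPM, and the 5 T cell markers had a median of 973 TPM. Markers of other cells were present as well. The 8 erythroid markers summed to 14042, 1180 and 811 TPM in libraries 1, 2 and 3, the 6 B cell markers to 49.3, 45.2 and 74.2 TPM, and the 7 myeloid markers to 138, 74.0 and 88.1 TPM. None of these markers was at 0.

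The mitochondrial genome is a small circle that encodes a few subunits of the respiratory chain, the rRNAs of its own ribosome and a set of tRNAs. Both strands are copied into long precursors, and tRNAs lying between the other genes mark the places where mitochondrial RNase P and the ELAC2 nuclease cut. The released mRNAs receive short poly(A) tails from the polymerase MTPAP, and in several mRNAs this tail completes the stop codon. Treg are known for using oxidative phosphorylation, to which every mitochondrial mRNA contributes a subunit.

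The reading frames of the 13 mRNAs end in different ways, and this bears on a polyadenylated library because part of a stop codon can come from the tail. By the GENCODE M21 transcripts, 10 frames ended in a complete TAA or TAG codon. The other 3, mt-Co3, mt-Nd4 and mt-Cytb, ended in a single T after the last whole codon. Their last 20 bases follow on the plus strand, 5′ to 3′, with that T in capitals.
mt-Co3: catttattgatgaggatctT
mt-Nd4: aattacaggcctgacaataT
mt-Cytb: aatactaaaattatatccaT
These ends lie at chromosome M 9371 to 9390, 11525 to 11544 and 15269 to 15288.

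2 pairs of reading frames share several bases on the same strand. A further pair, mt-Atp6 and mt-Co3, shares only the base at 8607, where mt-Atp6 ends and mt-Co3 starts. mt-Atp8 and mt-Atp6 share 43 bases at 7927 to 7969, and mt-Nd4l and mt-Nd4 share 7 bases within 10155 to 10173. In both sequences the capitals mark the start codon of the downstream frame and the stop codon of the upstream frame.
mt-Atp8 and mt-Atp6: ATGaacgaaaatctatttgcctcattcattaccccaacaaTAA
mt-Nd4l and mt-Nd4: caacctactacaATGcTAA
Start codons also varied. ATG opened most frames, whereas mt-Nd1 began with GTG, mt-Nd2 with ATA, mt-Nd3 with ATT and mt-Nd5 with ATC.

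Mitochondrial genes took 370480 of the gene reads in library 1, 390758 in library 2 and 500237 in library 3. These were 1.22%, 1.375% and 1.565% of gene reads, with exact Clopper-Pearson 95% intervals of 1.216% to 1.224%, 1.371% to 1.379% and 1.561% to 1.57%, which cover counting error only. The share was lowest in library 1 and highest in library 3, and the intervals did not overlap. It averaged 1.39% ± 0.173 (SD, n = 3). In bulk RNA, more mitochondrial RNA per cell and more cells rich in it cannot be told apart. By length-scaled TPM, the 37 genes made up 2.81% ± 0.225 of all transcripts. This TPM share was 2.56%, 2.99% and 2.89% in libraries 1, 2 and 3, and so was highest in library 2. The short tRNA gene mt-Ts1 alone made up 0.370% ± 0.0493.

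The mRNA genes held 75.8% ± 0.45 of the mitochondrial reads, the rRNA genes 23.8% ± 0.435 and the tRNA genes 0.412% ± 0.0291. This division, which is that of polyadenylated RNA, moved little between libraries. mt-Rnr2, the large-subunit rRNA, alone took 20.7% ± 0.829, and the 5 genes with most reads, mt-Rnr2, mt-Co1, mt-Co3, mt-Atp6 and mt-Cytb, took 71.8% ± 0.756. Of the reads on mRNA genes, 98.7% ± 0.0271 were on genes annotated on the plus strand. mt-Nd6 is the mRNA gene on the minus strand.

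Complex IV, cytochrome c oxidase, passes electrons to oxygen, and its 3 mitochondrial subunits were among the most abundant members. mt-Co3 (8607 to 9390) had 3872, 4848 and 4634 TPM in libraries 1, 2 and 3, mean 4451 ± 513. mt-Co2 (7013 to 7696), which accepts electrons from cytochrome c, had 2216, 2702 and 2606 TPM, mean 2508 ± 257. mt-Co1 (5328 to 6872), the catalytic subunit, had 1877, 2155 and 2521 TPM, mean 2184 ± 323. Library 1 was the lowest for all 3 genes. Library 2 was highest for mt-Co3 and mt-Co2 and library 3 for mt-Co1. By mean TPM, mt-Co3 ranked 8 among all annotated genes, mt-Co2 29 and mt-Co1 41.

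Complex V, the ATP synthase, has 2 mitochondrial subunits in its proton channel part. mt-Atp6 (7927 to 8607) had 3918, 4516 and 3497 TPM in libraries 1, 2 and 3, mean 3977 ± 512, and ranked 11 among all genes. In TPM it was the only mRNA lowest in library 3. mt-Atp8 (7766 to 7969), whose frame runs into that of mt-Atp6, had 1377, 1573 and 1467 TPM, mean 1472 ± 98. The log2 ratio of mt-Atp8 over mt-Atp6 was -1.43 ± 0.15, negative in all 3 libraries. With nuclear copies joined to their member it was -1.93 ± 0.03. The frames overlap with no tRNA gene between them, and whether the reads of both genes come from a shared RNA was not tested. Complex III, which takes electrons from ubiquinol to cytochrome c, has 1 mitochondrial subunit. Its mRNA mt-Cytb (14145 to 15288) had 1562, 1654 and 1957 TPM, mean 1724 ± 207, highest in library 3.

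The 7 mRNAs of complex I, the NADH dehydrogenase that feeds electrons into the chain, were the lowest of the mRNAs. mt-Nd1 (2751 to 3707) led them with 1327, 1310 and 1433 TPM in libraries 1, 2 and 3, mean 1357 ± 66.2. The next was mt-Nd4 (10167 to 11544) with 536, 555 and 632 TPM, mean 575 ± 50.8. Both peaked in library 3. mt-Nd5 (11742 to 13565) had 441, 461 and 521 TPM, mean 474 ± 41.7. mt-Nd6 (13552 to 14070), whose end faces the end of mt-Nd5 on the other strand, had 387, 443 and 468 TPM, mean 433 ± 41.7. The 3 lowest were mt-Nd2, mt-Nd3 and mt-Nd4l, all core membrane subunits. mt-Nd2 (3914 to 4951) had 296, 298 and 328 TPM, mean 307 ± 18.2. mt-Nd3 (9459 to 9806) had 210, 238 and 232 TPM, mean 227 ± 14.7. mt-Nd4l (9877 to 10173) had 159, 191 and 219 TPM, mean 189 ± 30.1. Library 1 was the lowest for each of these 7 except mt-Nd1, which was lowest in library 2.

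**Figure D1:**
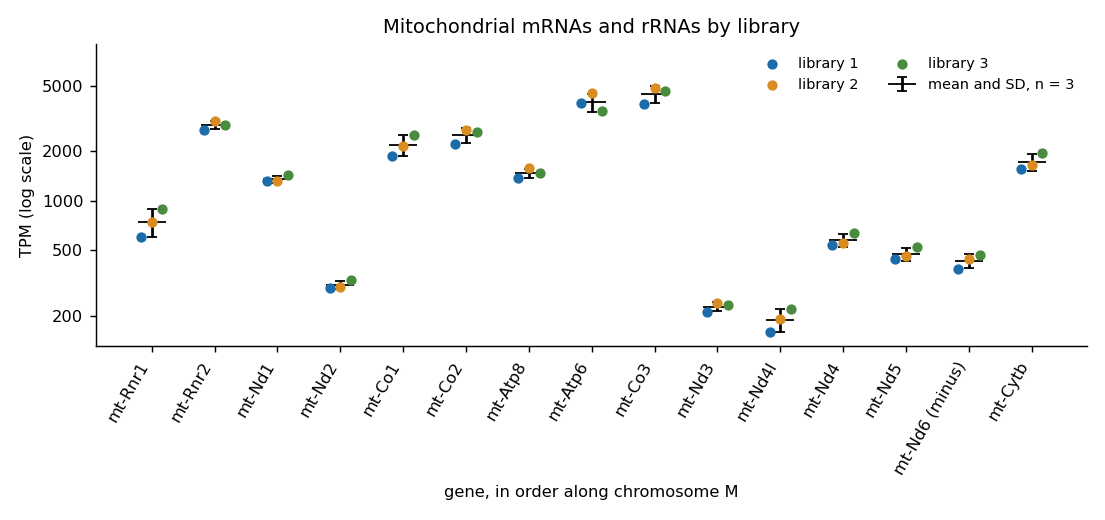
TPM on a log scale of the 13 mitochondrial mRNAs and 2 rRNAs in library 1, library 2 and library 3 (points), with mean and SD (bars, n = 3), in order along chromosome M. mt-Co3 and mt-Atp6 lie highest and the genes of complex I, apart from mt-Nd1, lie below both rRNAs in each library.

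In each library all 7 complex I mRNAs lay below all 6 other mRNAs, an ordering noticed after the values were seen. The narrowest step was that of mt-Atp8 over mt-Nd1, a log2 ratio of 0.12 ± 0.13 that did not exceed the spread. It turned to -0.20 when expected counts were divided by the annotated length in place of the effective length, since the deposited effective length is the length less 49 bases and mt-Atp8 is only 204 bases long. In the order of the 15 mRNAs and rRNAs, 8 of 14 neighbours were apart, meaning that their log2 ratio had 1 sign in all libraries and a mean over 2 SD. The neighbours not apart were mt-Co3 and mt-Atp6, mt-Co2 and mt-Co1, mt-Cytb and mt-Atp8, mt-Atp8 and mt-Nd1, mt-Nd5 and mt-Nd6, and mt-Nd3 and mt-Nd4l.

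Genes of the plus strand differed in level. mt-Nd1 and mt-Nd2, which are neighbours among the mRNA genes, stood at a log2 ratio of 2.14 ± 0.02, a 4.42-fold ratio of means and the steadiest of the 13 pairs compared. mt-Nd1 over mt-Nd5 was 1.52 ± 0.07. mt-Nd4l over mt-Nd4, whose frames overlap with no tRNA gene between them, was -1.61 ± 0.13. Whether the reads of mt-Nd4l and mt-Nd4 come from a shared RNA was not tested. mt-Co1 stood above mt-Nd1 by 0.68 ± 0.16 and above mt-Cytb by 0.34 ± 0.06, but below mt-Co3 by a log2 ratio of -1.03 ± 0.15. These 3 ratios depend on how reads shared with nuclear copies are divided. With copies joined to their member they were 1.25 ± 0.15, 0.91 ± 0.06 and -0.59 ± 0.09, and by posterior mean TPM that to mt-Co3 was -0.45 ± 0.17. Of the 13 pairs, 10 exceeded the spread.

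The minus-strand mRNA mt-Nd6 was compared with its neighbours on the plus strand. mt-Nd6 over mt-Cytb was -1.99 ± 0.08. mt-Nd6 over mt-Nd5 was -0.13 ± 0.07, which did not exceed the spread. It did without library 2, at -0.17. Base composition set mt-Nd6 apart, since its mRNA held 28.1% G and 5.97% C, whereas the plus-strand mRNAs held between 5.88% and 16.1% G. Strandedness of the libraries is not given in the sources used here. Reads from mt-Nd6 and from the opposite strand therefore cannot be told apart, and this holds for all minus-strand members.

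The rRNAs form the core of the mitochondrial ribosome. mt-Rnr2 (1094 to 2675) had 2713, 3038 and 2892 TPM in libraries 1, 2 and 3, mean 2881 ± 163, and ranked 24 among all genes. mt-Rnr1 (70 to 1024), the small-subunit rRNA, had 606, 742 and 888 TPM, mean 745 ± 141, lowest in library 1 and highest in library 3. mt-Rnr2 exceeded mt-Rnr1 by a log2 ratio of 1.97 ± 0.24 and mt-Nd1, the mRNA that follows it after a tRNA gene, by 1.09 ± 0.11. The ratio to mt-Rnr1 was 2.16, 2.03 and 1.70 in libraries 1, 2 and 3, the widest spread of the 13 pairs. These are levels in libraries of polyadenylated RNA, and how they relate to the total rRNA of the cells was not tested.

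The 22 tRNA genes together had 1480, 1738 and 1953 reads in libraries 1, 2 and 3. 1 gene, mt-Ts1, the tRNA for serine that reads UCN codons, held 83.3% ± 1.72 of them. The 5 tRNA genes with most reads were all annotated on the minus strand. Their sequences are shown because they carry most of the tRNA reads, 5′ to 3′ from the GENCODE M21 transcripts (mm10), with the anticodon in capitals.
mt-Ts1: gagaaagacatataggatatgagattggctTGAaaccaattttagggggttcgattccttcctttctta
mt-Te: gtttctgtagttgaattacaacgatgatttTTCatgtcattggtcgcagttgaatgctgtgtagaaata
mt-Tc: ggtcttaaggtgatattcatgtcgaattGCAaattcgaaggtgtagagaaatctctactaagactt
mt-Ty: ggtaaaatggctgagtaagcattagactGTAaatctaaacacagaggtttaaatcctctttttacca
mt-Tn: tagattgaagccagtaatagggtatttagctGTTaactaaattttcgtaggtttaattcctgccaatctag
They lie at 6870 to 6938, 14071 to 14139, 5192 to 5257, 5260 to 5326 and 5089 to 5159.

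mt-Ts1 had 1204, 1461 and 1651 reads in libraries 1, 2 and 3. The gene lies on the strand opposite mt-Co1 and covers the stop codon of the mt-Co1 frame, with the rest of it just downstream. mt-Te, the tRNA for glutamate, lies between mt-Nd6 and mt-Cytb and had 117, 108 and 170 reads. Scaled to library size, mt-Te was highest in library 3 and mt-Ts1 in library 2. mt-Tc, for cysteine, had 23, 19 and 25 reads, mt-Ty, for tyrosine, 21, 17 and 22, and mt-Tn, for asparagine, 24, 14 and 17.

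The fewest reads were on mt-Ts2, with 1, 2 and 0 reads, and then on mt-Tw, mt-Ta, mt-Td, mt-Tg and mt-Tr, which tied at a mean of 2.67. Every tRNA gene had a read in at least 1 library. The 0 reads of mt-Ts2 in library 3 do not show that its RNA was absent.

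Split by strand after the values were seen, the 8 minus-strand tRNA genes had a median of 19.2 reads, from 2.67 to 1439, and 6 reached a mean of 10. The 14 plus-strand tRNA genes had a median of 3.67 reads, from 1 to 17, and 1 of them, mt-Tl1, the tRNA for leucine between mt-Rnr2 and mt-Nd1, reached a mean of 10. TPM is a poor guide here, because the effective length of a tRNA gene was only 10 to 26 bases. mt-Ts1 thereby reached 3677 ± 490 TPM from a mean of 1439 reads, and ranked 13 among all genes by TPM but 5042 by reads. mt-Te reached 332 ± 42.9 TPM from 132 reads. The labels give a size range of 100-300 for the libraries, and its part in these counts was not tested.

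**Figure D2:**
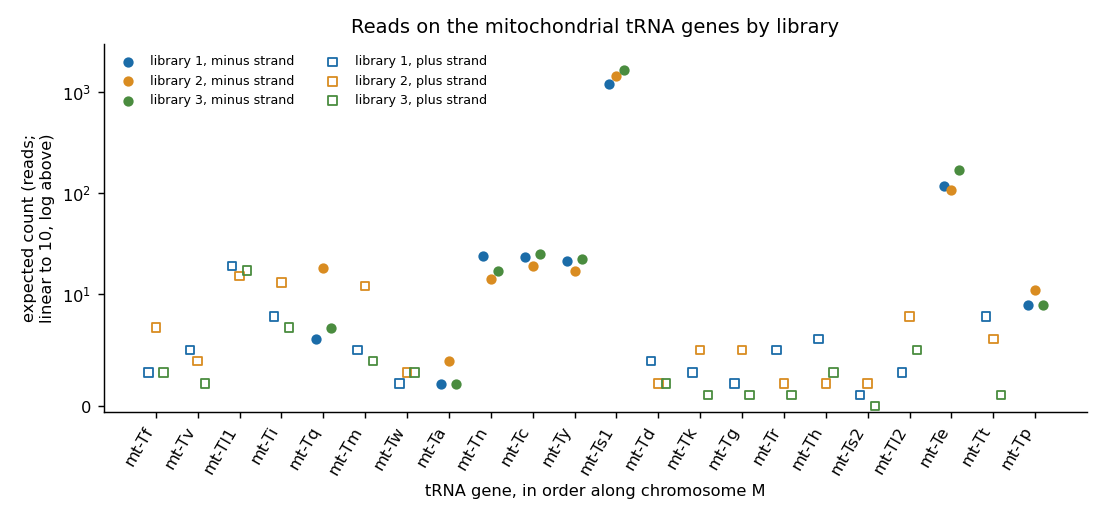
Expected counts of the 22 mitochondrial tRNA genes in library 1, library 2 and library 3, in order along chromosome M, on an axis that is linear to 10 reads and logarithmic above. Filled circles are genes on the minus strand and open squares genes on the plus strand. mt-Ts1 has at least 1204 reads in each library, and no plus-strand gene exceeds 19.

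Differences between the libraries were tested with a chi-square test of each gene's rounded reads against the scaled library sizes, with Benjamini-Hochberg adjustment over all 17190 genes that averaged at least 10 reads. It compares these libraries, not conditions. Of the 37 members 22 passed the read minimum, and 18 of them were called at an adjusted p of 0.05, against a background of 79.8% of all genes tested. The members' share is thus near the background. Among genes averaging at least 50 reads, 17 of 17 members were called, against a background of 87.1%. At the minimum of 10 reads, those called were all 13 mRNAs, both rRNAs, and mt-Ts1, mt-Te and mt-Tq among 7 tRNAs. mt-Tl1, mt-Tn, mt-Tc and mt-Ty were not called, with adjusted p from 0.273 to 0.93. mt-Tq, the tRNA for glutamine, had 6, 18 and 7 reads in libraries 1, 2 and 3 (adjusted p = 0.00567), and without library 2 it fell under the read minimum.

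The differences were small. Between the highest and the lowest library the members tested differed by 1.25-fold in the median, and the mRNAs by 1.14-fold to 1.47-fold. The median was 1.48-fold over all genes tested and 1.29-fold over those averaging at least 500 reads. mt-Rnr1 differed by 1.56-fold (adjusted p = 4.21e-294), mt-Nd4l by 1.47-fold (adjusted p = 2.72e-15), mt-Atp8 by 1.14-fold (adjusted p = 1.34e-10) and mt-Nd3 by 1.17-fold (adjusted p = 0.00017). Some calls rested on 1 library. Without library 1, mt-Rnr2, mt-Ts1, mt-Atp8 and mt-Nd3 were no longer called, with adjusted p of 0.0531, 0.182, 0.684 and 0.424. Without library 3, mt-Nd1, mt-Nd2 and mt-Te were not called, with adjusted p of 0.345, 0.759 and 0.987.

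The mitochondrial mRNAs and rRNAs moved with the libraries in much the same way. CPM, reads scaled to the library sizes of the test, was highest in library 3 for 11 of 13 mRNAs and both rRNAs, whereas mt-Atp6 and mt-Atp8 were highest in library 2. Library 1 was the lowest for 11 of 13 mRNAs and both rRNAs. Over the 22 members tested, 14 were highest in library 3, where the background was 34.5% of all genes tested, and 15 were lowest in library 1, where it was 30.2%. Of the 7 tRNAs tested, 4 were highest in library 1, where the background was 32.8%, and these were the 4 not called. mt-Te was highest in library 3, and mt-Ts1 and mt-Tq in library 2. Whether tRNAs and mRNAs differ in this was not tested. In TPM, in place of CPM, mt-Co2, mt-Co3, mt-Nd3 and mt-Rnr2 were highest in library 2, as mt-Atp6 and mt-Atp8 were by both measures.

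As log2 of CPM against the mean of the other 2 libraries, the mRNAs had medians of -0.20 in library 1, -0.03 in library 2 and 0.23 in library 3. Over all genes tested the medians were 0.00, 0.01 and -0.06. Short nuclear genes leaned the same way as the mRNAs. Among 2600 nuclear protein-coding genes of 204 to 1824 bases and at least 500 reads on average, a set formed after the values were seen, the medians were -0.07, -0.06 and 0.11, and 54.3% were highest in library 3. All 8 erythroid markers were highest in library 1, at a summed level of 14042 TPM against 1180 and 811 TPM in libraries 2 and 3. The part of gene length and of these other RNAs in the members' pattern was not tested.

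**Figure D3:**
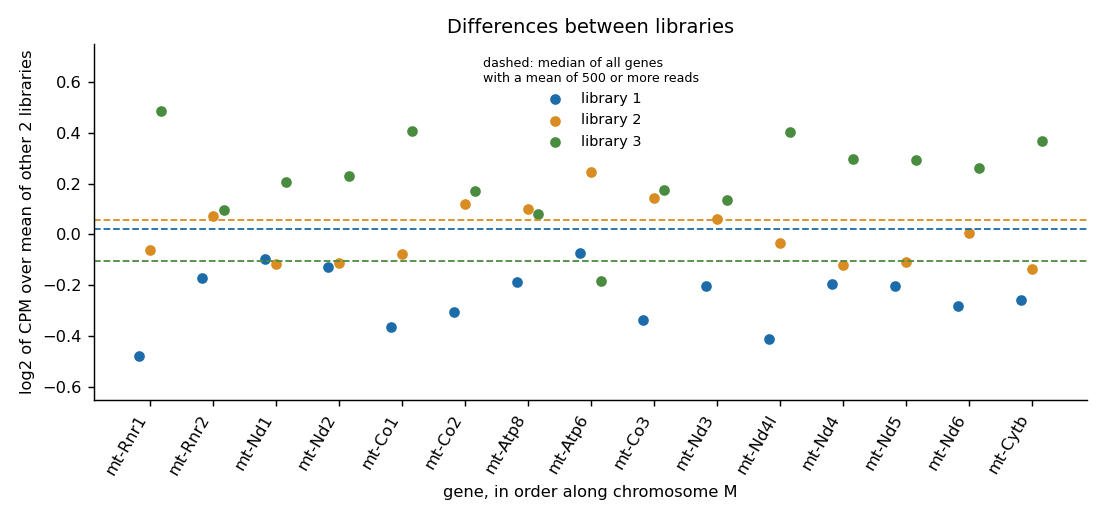
Log2 of CPM in each library over the mean of the other 2, for the 15 mitochondrial mRNAs and rRNAs in order along chromosome M. Dashed lines give each library's median over all genes averaging at least 500 reads. Library 1 points lie below 0 for all 15 genes, and library 3 points lie above 0 for all but mt-Atp6.

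Part of the mitochondrial genome is also annotated as pseudogenes in the nucleus, and reads that match both were divided by the authors' counting. By BLASTN of GENCODE M21 transcripts, 16 nuclear genes matched mitochondrial sequence at 90% or more identity over 80% or more of their length. Of these, 7 lie side by side on the minus strand of chromosome 1 (24611535 to 24616197) in the same order, read along that strand, as on chromosome M (6390 to 11042). Gaps between neighbouring copies were 140, 233, 2 and 69 bases on both chromosomes, then 73 on chromosome M and 74 on chromosome 1, and -4, an overlap, on both. 5 of the 7 were identical to their members over their whole length. These were Gm28661 with mt-Co2, Gm10925 with mt-Atp6, Gm28437 with mt-Co3, Gm10222 with mt-Nd4l and Gm28439 with mt-Nd4.

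The 2 copies with differences were Gm29216 and Gm28438. Gm29216 covers the end of mt-Co1 and differed at 6 of 492 bases, all within its first 13, leaving 479 identical bases after them. Gm28438 differed from mt-Nd3 at 1 of 345 bases, T3C, counted from the first base of mt-Nd3, which is chromosome M 9461. The stretches that hold every difference between copy and member are printed, because reads that cover a difference can be placed by it. Differing bases are in capitals.
mt-Co1: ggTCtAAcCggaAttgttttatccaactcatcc
Gm29216: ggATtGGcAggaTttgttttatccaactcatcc
mt-Nd3: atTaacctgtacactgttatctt
Gm28438: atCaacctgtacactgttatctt
They lie at chrM:6381-6413 on the plus strand, chr1:24616165-24616197 on the minus strand, chrM:9459-9481 on the plus strand and chr1:24613097-24613119 on the minus strand.

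The share of each member's 50-base windows that occur unchanged in a nuclear transcript was 100% for mt-Co2, 99.9% for mt-Co3, 99.5% for mt-Atp6, 98.8% for mt-Nd4l and 98% for mt-Nd3. It was 62.2% for mt-Nd4 and 51.1% for mt-Co1. mt-Nd2 had 8.19%, mt-Nd5 7.61% and mt-Rnr2 1.04%, and the other members had none. A window of 50 bases matches the deposited effective lengths, which are 49 bases short of the annotated length for each member.

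The chromosome 1 copies were given 52537, 45425 and 82464 expected reads in libraries 1, 2 and 3. mt-Co1 had 53294, 56723 and 83960 reads and Gm29216 26142, 27736 and 39674, and copies took 32.6% ± 0.455 of the sum of mt-Co1 and its copies. At a mean of 3564 TPM this pseudogene stood above mt-Co1 itself. Gm10925 was given 17009, 14926 and 30542 reads, highest in library 3, the library in which mt-Atp6 was lowest in TPM. Gm28437 was given 6638, 1995 and 9364 reads and Gm28661 2013, 268 and 2408, both lowest in library 2. Gm28438 was given 735, 501 and 475 reads, highest in library 1. Gm10222 and Gm28439 were given none. Away from chromosome 1, the copy with most reads was Gm13340 on chromosome 2, 97.6% identical to mt-Co1, with a mean of 31.1 reads.

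The deposited tables hold another estimate of the same reads, the posterior mean count, and it divided them otherwise. For mt-Co3 the copy's share of the joined reads was 38.9% ± 3.97 by posterior mean and 8.34% ± 4.55 by expected count. For mt-Co2 it was 29.2% ± 2.37 and 4.70% ± 3.32, and for mt-Atp6 39.3% ± 3.85 and 29.3% ± 8.04. mt-Co1 and mt-Nd3, whose copies differ in sequence, kept nearly the same shares, 32.6% ± 0.457 and 32.6% ± 0.455 for mt-Co1 and 29.6% ± 7.99 and 30.1% ± 7.43 for mt-Nd3. Of the other members with an identical copy, mt-Nd4 had 0.0284% and 0%, and mt-Nd4l 5.41% and 0%. The part of sequence differences in this was not tested. Member and copy together had the same number of reads in both estimates, for mt-Co3 60639, 64700 and 85176. The authors' posterior SD in library 1 was 3147 reads for mt-Co3, 210 for mt-Nd3 with a posterior mean of 1193 reads, and 0 for mt-Nd1, which has no such copy.

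**Figure D4:**
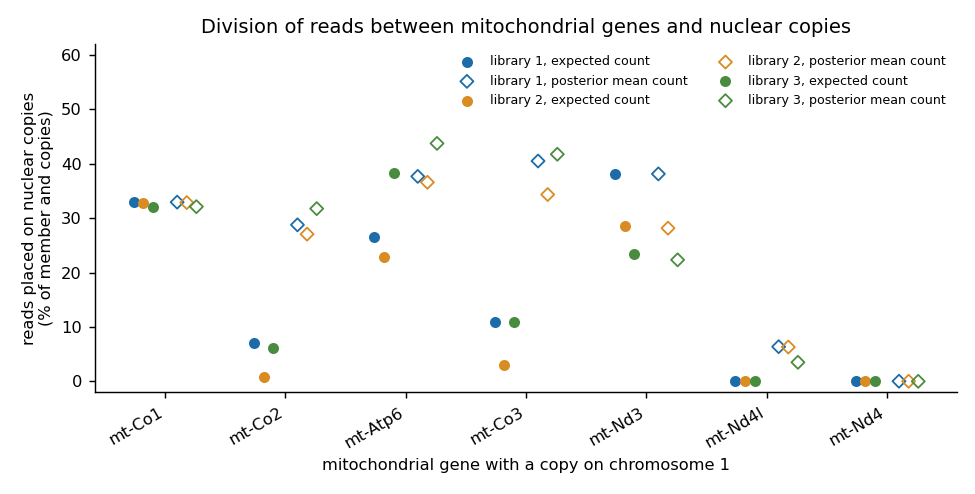
Share of the reads of a mitochondrial gene and its nuclear copies that was placed on the copies, in percent, for the 7 genes with a copy on chromosome 1. Filled circles are expected counts and open diamonds posterior mean counts in library 1, library 2 and library 3. The 2 estimates coincide for mt-Co1 and part for mt-Co2, mt-Atp6 and mt-Co3.

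Counting members and copies together, an alternative added after the values were seen, raised the mitochondrial share to 1.58% ± 0.219 of gene reads. mt-Atp6 then stood above mt-Co3 by a log2 ratio of 0.22 ± 0.09 in reads per effective base, and mt-Co1 above mt-Co2 by 0.29 ± 0.11, where the TPM ratios were -0.16 ± 0.22 and -0.20 ± 0.14. mt-Nd3 was no longer called between libraries, at 1928, 1753 and 2021 joined reads in libraries 1, 2 and 3 (adjusted p = 0.284, 1.05-fold). Scaled to library size these were 64.3, 63.1 and 61.0 CPM, highest in library 1 and lowest in library 3, unlike most other mRNAs. mt-Atp6 joined with its copies was highest in library 3 and lowest in library 1, as most other mRNAs were, with 2134, 2346 and 2408 CPM in libraries 1, 2 and 3. Levels of mt-Co1, mt-Co2, mt-Atp6, mt-Co3 and mt-Nd3 given above are therefore uncertain as to the division with their copies. Those of mt-Nd4l and mt-Nd4 rest on such a division too. Their identical copies took 5.41% and 0.0284% of joined reads by posterior mean, and 0% by expected count.

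A smaller deposited gene table, with whole read counts for 22457 genes, lists mt-Co2, mt-Atp8, mt-Atp6, mt-Co3 and mt-Nd4l at 0 in all 3 libraries and mt-Nd3 at 0, 0 and 1. All 6 genes lie between the ends of the stretch of chromosome M whose copies line up on chromosome 1. For mt-Atp8, most of which falls in the gap between Gm28661 and Gm10925, only the length of that gap was compared, not its sequence. Genes outside that stretch kept counts, such as mt-Nd1 with 1835, 1838 and 1843, mt-Cytb with 2165, 2172 and 2185 and mt-Nd5 with 2991, 2971 and 3012 in libraries 1, 2 and 3. mt-Co1 and mt-Nd4, which lie partly inside it, had 1370, 1374 and 1391 counts and 1020, 1016 and 1030 counts. The 7 genes with counts held 2.13% to 24.9% of their expected counts, and came to between 1.3 and 2.04 counts per base outside the stretch. The counts are nearly equal between libraries. The counting method behind this table was not stated in the labels or headers. In the larger table the expected counts of these 6 genes averaged from 928 reads for mt-Nd4l to 64172 for mt-Co3.

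Respiratory complexes I, III, IV and V are built from mitochondrial and nuclear products, and the mitochondrial mRNAs had the higher median level per gene in each. The median TPM of mitochondrial over nuclear subunits gave a log2 ratio of 1.41 ± 0.15 for complex I (7 against 36 genes), 2.99 ± 0.18 for complex III (1 against 9), 2.59 ± 0.19 for complex IV (3 against 10) and 2.88 ± 0.18 for complex V (2 against 15). The ratio was positive in all 3 libraries for each complex. With copies joined, it was 2.96 ± 0.16 for complex IV and 3.27 ± 0.07 for complex V.

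The ranges overlapped in complex I. In mean TPM, mt-Nd2, mt-Nd3 and mt-Nd4l lay below Ndufa3, the highest nuclear subunit, which had 280, 309 and 403 TPM in libraries 1, 2 and 3. In complex IV the lowest mitochondrial subunit mt-Co1 stood at 2184 TPM, and Cox4i1, the highest nuclear subunit, had 807, 699 and 885 TPM. In complex V, mt-Atp8 at 1472 TPM stood above Atp5b, the catalytic beta subunit, at 1019, 937 and 997 TPM. In complex III, mt-Cytb at 1724 TPM stood above Uqcrh, the hinge protein, at 368, 375 and 485 TPM. The second highest nuclear subunits were Ndufa6 at 326 ± 41.4 TPM, Uqcr10 at 391 ± 30.5 TPM, Cox6b1 at 517 ± 54.7 TPM and Atp5g3 at 648 ± 71.6 TPM. The lowest were Ndufb4 at 50.4 ± 3.42 TPM, Uqcrc2 at 144 ± 10.6 TPM, Cox7c at 207 ± 5.75 TPM and Atp5g2 at 15.6 ± 1.49 TPM.

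Summed over genes, the nuclear subunits were the more abundant in complexes I, III and V, and the mitochondrial subunits in complex IV. The 7 mitochondrial mRNAs of complex I summed to 3561 TPM and its 36 nuclear mRNAs to 6272 TPM. For complex V the sums were 5449 and 6116 TPM, for complex III 1724 and 2221 TPM, and for complex IV 9144 and 4131 TPM. Nuclear copies are left out of these sums. Gm10925, the copy of mt-Atp6, held 1425, 1348 and 2181 TPM in libraries 1, 2 and 3. That is more than the gap between the complex V sums, so their order depends on the division with copies. By CPM the nuclear subunits also leaned towards library 3. It was the highest for 35 of 36 in complex I, 8 of 9 in complex III, 9 of 10 in complex IV and 14 of 15 in complex V. The background was 34.5% of all genes tested and 54.3% of the 2600 shorter nuclear genes above. In TPM some subunits were highest in library 1 instead, such as Atp5b. Called between libraries were all 36, 8 of 9, 9 of 10 and 14 of 15 nuclear subunits. The background was 79.8% of all genes tested and 87.1% of those averaging at least 50 reads.

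**Figure D5:**
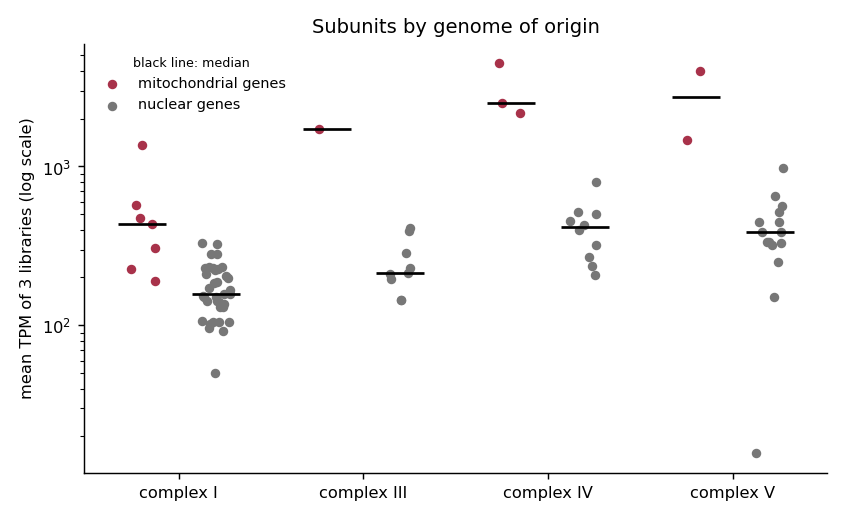
Mean TPM over the 3 libraries, on a log scale, of the subunits of complexes I, III, IV and V encoded by mitochondrial genes (red, left in each pair) and by nuclear genes (grey, right). Black lines are medians. The mitochondrial median lies above the nuclear median in each complex, and the 2 ranges overlap in complex I.

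Nuclear genes that make and handle mitochondrial RNA had list medians from 12.9 to 37.3 TPM. Of 9 transcription genes, Tfam, which packages and bends the DNA at promoters, had 78.5 ± 2.64 TPM and Mterf3 67.4 ± 2.61 TPM, the lowest was Mterf1b at 4.41 ± 1.66 TPM, and the median was 18.6 TPM. Of these, 7 were called between libraries. The 11 RNA cleavage genes had a median of 16.3 TPM, led by Fastk at 103 ± 13.6 TPM and Hsd17b10, a subunit of mitochondrial RNase P, at 78.3 ± 13.8 TPM. Its catalytic subunit, listed as 1110008L16Rik, was the lowest at 7.90 ± 1.59 TPM. Of the 11, 10 were called.

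In the stability, tailing and decay list, Rexo2, which degrades very short RNAs, had 212 ± 29.1 TPM, Slirp, the partner of Lrpprc in holding mRNAs, 59.8 ± 9.79 TPM, and Pde12, a deadenylase, 11.5 ± 1.22 TPM. The median of its 8 genes was 36.0 TPM and 7 were called. For rRNA modification, Rpusd4 had 34.0 ± 2.62 TPM, Nsun4 20.2 ± 1.43 TPM and Tfb1m, which methylates the small-subunit rRNA, 4.67 ± 0.978 TPM, with a median of 12.9 TPM and 4 of 7 called. For tRNA maturation, Trnt1, which adds the CCA end, had 68.7 ± 5.97 TPM, Trmu 38.1 ± 0.777 TPM and Gtpbp3 6.78 ± 3.23 TPM, with a median of 23.0 TPM and 9 of 10 called.

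Among 19 aminoacyl-tRNA synthetases, Lars2, which charges the leucine tRNAs, had 291 ± 12.1 TPM, Kars 91.1 ± 8.41 TPM and Wars2 2.50 ± 1.25 TPM. Their median was 26.4 TPM and 14 were called. The 11 translation factors had a median of 25.5 TPM, with Tufm, the elongation factor that delivers tRNAs, at 75.0 ± 12.3 TPM, Oxa1l, which inserts new proteins into the membrane, at 53.3 ± 4.72 TPM and Mtrf1 at 3.81 ± 0.419 TPM, and 7 were called. The 13 genes of mitochondrial DNA maintenance had a median of 21.7 TPM, with Ssbp1, the single-strand binding protein, at 103.6 ± 1.70 TPM, Polg, the DNA polymerase, at 75.2 ± 15.1 TPM and Mgme1 at 5.61 ± 0.514 TPM, and 11 were called. Of 7 regulators of biogenesis, Nrf1 had 70.2 ± 12.8 TPM and Gabpb1 54.3 ± 6.98 TPM. Ppargc1a, the coactivator prominent in muscle and brown fat, had 0.21 ± 0.213 TPM and was under the read minimum. The other 6 were all called.

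Over all pathway and subunit lists, 142 of 164 genes tested were called between libraries. The background was 79.8% of all genes tested and 87.1% of those averaging at least 50 reads. Without library 3, 89 of the 164 were called, against 54.3% of all genes tested in that setting.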

How the data were processed

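Polyadenylated RNA-seq of 3 libraries was analysed as 1 group. The larger deposited gene table has the columns of RSEM, per the file headers, and identifiers of GENCODE M21 on mm10. Its expected counts as deposited are the authors' estimated counts per gene, not normalized. Its posterior mean count columns hold the authors' other estimate. TPM and FPKM as deposited were scaled by the authors for effective length and total. The smaller deposited table holds whole read counts for 22457 genes of an earlier GENCODE release and served as an alternative. For the kit, strandedness, aligner and counter, each is not given in the sources used here. The 26345 entries without a gene, 0.166% to 0.229% of reads, were left out. Signal tracks, transcript tables and reads were not used here.

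The members and lists, and the named genes, were chosen with earlier results of these data known. Named were all mRNAs and rRNAs, the 5 highest and 3 lowest tRNAs with ties, the 2 highest and the lowest gene of each list, and nuclear copies with a mean of 10 or more reads. Other genes were named after their values were seen.

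Expected counts were rounded for a chi-square test with 2 degrees of freedom against TMM library sizes (edgeR 4.0.16, R 4.3.3), for genes averaging at least 10 reads, with Benjamini-Hochberg adjustment and a threshold of 0.05. A quasi-likelihood contrast needs a second group and could not be fitted, and with 3 libraries the smallest sign-flip p is 0.25, so a ratio was taken to exceed the spread when its sign was the same in each library and its mean was over 2 SD. The chi-square test allows for counting error alone and estimates no variance between libraries. Its p-values therefore measure how far these libraries depart from equal scaled reads beyond counting error. Since the labels do not say that the libraries came from separate cultures or animals, the p-values apply to these libraries only. Log2 library profiles used CPM plus 0.5. The procedure was tested on simulated counts that varied by counting error alone, apart from the changes put in. Such a simulation cannot show how the test behaves where libraries vary beyond counting error. DESeq2 1.42.0 gave alternative size factors.

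No genome sequence was given, so nuclear copies were sought with BLASTN 2.17.0 against chromosome M rebuilt from the transcripts of the mitochondrial genes, without the control region. The planned search was otherwise to be skipped. Anticodons were located from known triplets and checked by pairing of the anticodon stem. Windows shared with nuclear transcripts, joined counts, tRNAs by strand and the sets of well-counted or length-matched genes were added after the data were seen. Other steps ran in Python 3.11.15 with pandas 2.3.3, scipy 1.17.1, numpy 2.4.6 and matplotlib 3.10.9.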

Additional observations from a re-analysis of the deposited data

How the results depend on the processing

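No paired analysis was possible because there was 1 group. There were 45 results and 402 alternatives, of which 373 were scored as the same. The alternatives covered normalization, read minimum, pseudocount of 1, FPKM, posterior means, effective length, the smaller table and each library left out. Copies joined to their member were added after the data were seen. For single genes the same meant an unchanged call, and for ratios an unchanged sign and call. FPKM ratios equal TPM ratios by construction. For counts and the mitochondrial share, the same meant only a value close to the main one. Thus 14 members called without library 1, against 18, scored as the same. The mitochondrial share was 2.81% by TPM, 1.58% with copies joined and 0.139% in the smaller table. There, 3 of 7 members tested were called, against 64.9% of all genes, 1 was highest in library 3, and the log2 ratios of mt-Nd6 over mt-Nd5, mt-Co1 over mt-Nd1 and mt-Co1 over mt-Cytb turned to 0.094, -1.11 and -1.09. The last 2 divide by all of mt-Co1, while outside the copied stretch mt-Co1 had 1.3 counts per base, against 1.92 for mt-Nd1 and 1.9 for mt-Cytb. Ratios of mt-Nd6 over mt-Cytb, mt-Nd1 over mt-Nd2 and mt-Nd1 over mt-Nd5 shrank there to -0.12, 0.42 and 0.23. mt-Co1 over mt-Co2 turned to 0.22 by posterior mean TPM and 0.29 with copies joined, and mt-Atp6 over mt-Co3 to 0.20 and 0.22. Members called were 14 of 24 tested without library 1, 17 of 21 without library 2 and 15 of 24 without library 3, against 65.1%, 65.9% and 54.3% of all genes. With each library left out, pathway genes called ranged from 89 of 164 without library 3 to 129 of 164 without library 2, and the share from 1.30% to 1.47%. mt-Te was not called with no read minimum (adjusted p = 0.0507). Library profiles without library 3, and pair counts in the smaller table, where members are at 0, gave no value. Low reads left most tRNA members untested.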
